A study of Mus musculus with 103 samples.

Results

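The transporters described here are the members of the Slc22a, Slco, Abcb, Abcc and Abcg families on the array, taken as every gene whose symbol begins with one of these family names followed by a digit, with Slco1a1 left out. This gave 55 of the 17097 named genes, made up of 19 Slc22a, 13 Slco, 8 Abcb, 9 Abcc and 6 Abcg genes, each read from its probe set with the highest mean. The study traced and transformed mouse cells that express Prom1 (prominin 1) in many organs, and 103 Affymetrix arrays hold its tumours and its Prom1-selected cells. The primary tumours were 14 tumours labelled hepatocellular carcinoma and cholangiocarcinoma (HCC/CC), 2 hepatoblastomas, 5 large intestinal adenomas of the colon, 3 small intestinal adenomas of the duodenum, 8 prostatic adenocarcinomas, 7 gastric adenomas, 4 gastric adenocarcinomas, 3 uterine carcinomas, 2 lung adenocarcinomas and 4 perineal, 3 perioral and 1 periorbital squamous cell carcinomas (SCC). There were 7 metastases, each 1 sample of its kind. The sorted cells came from kidney (4 samples), small intestine (3), lung (4), prostate (3), salivary gland (3), stomach (2), uterus (4), liver of DDC-treated mice, an agent the labels do not spell out (9), neonatal liver (3) and untreated liver (5). For the cells, tissues were dissociated, red and dead cells removed and the rest selected with anti-Prominin1 beads before RNA extraction with the PicoPure kit, while tumour RNA was taken from dissected tissue with RNeasy columns. Preparation and tumour state therefore cannot be told apart in any comparison of tumour with cells. The labels give no genotype, strain, age other than neonatal, animal or batch, so p-values here measure only the spread between these samples, which may be technical. Sex was not part of any fit, and its part in the results was not tested.

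Organic ions, drugs, bile acids and sterols cross epithelia in 2 steps, by carriers at one face of the cell and pumps or carriers at the other. Slc22a carriers and the organic anion transporting polypeptides (Slco genes) mostly take such compounds into proximal tubule cells and hepatocytes, while ATP-driven pumps of the Abcb, Abcc and Abcg families export them into urine, bile, gut lumen or blood. Abcb11 exports bile salts into bile, Abcb4 phospholipid, Abcg5 with Abcg8 sterols, Abcc2 organic anion conjugates, and Abcb1a, Abcb1b and Abcg2 a wide range of drugs.

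Values are deposited log2 probe set levels, which carry no detection calls. A level under about 4.06, the 40th percentile of all gene values in the sorted cells, lies near the array background, so a difference against such a level is not a measured ratio. Levels are compared within a gene only. Defining markers fitted the organ labels: mean log2 levels of the marker lists were 12.05 to 12.29 for proximal tubule in kidney cells, 11.81 to 12.76 for enterocytes in small intestinal cells and 11.96 to 13.23 for hepatocytes in untreated liver cells. Kidney cells also held the thick limb and distal tubule markers, at 10.8 to 11.01 against 2.71 to 5.15 in the other sorted samples. They thus held more than 1 nephron segment, and the part of each segment in the kidney results was not tested. Prom1 itself averaged 10.76 ± 0.06 in kidney cells (SD, n = 4) but 3.45 ± 0.67 in untreated liver cells (SD, n = 5), near background. Its mean was 7.04 ± 2.27 in DDC liver cells (SD, n = 9) and 10.29 ± 0.08 in neonatal liver cells (SD, n = 3). The part of these Prom1 levels in the liver comparisons was not tested. In untreated liver cells Krt7 and Cldn7 of the bile duct markers also lay under the filter value. Untreated liver samples 1 and 2 stood apart, with mean endothelial marker levels of 11.25 and 11.11 against 7.20 to 8.49 in samples 3 to 5 and macrophage levels of 9.05 and 10.13 against 7.02 to 7.88. DDC samples 1, 2, 4 and 5 had endothelial levels of 10.53 to 11.15. Liver results are therefore also given without these 6 samples. In these bulk samples, fewer cells of a type and less RNA per cell cannot be told apart.

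Over the 10 sorted groups, 11 members had a mean above the filter value in every group, 29 in 2 to 9 groups, 8 in 1 group and 7 in none. The 11 present throughout were Abcb6, Abcb10, Abcc1, Abcc5, Abcg2, Slc22a5, Slc22a17, Slc22a18, Slc22a23, Slco2a1 and Slco3a1. Slc22a2, Slc22a8, Slc22a22 and Slco1a6 exceeded it only in kidney cells among the sorted groups. The 7 members under it in all sorted groups were Abcc12, Slc22a14, Slc22a19, Slc22a26, Slco1c1, Slco6c1 and Slco6d1. Kidney cells held the highest mean of 20 of the 55 members and untreated liver cells that of 9. These counts include members at background in every group, such as Slc22a19 (3.46 in kidney cells) and Slco1c1 (3.38 in untreated liver cells). Some leads over the next group were small, at 0.01 for Abcb10 in kidney cells and 0.05 for Abcb4 in untreated liver cells. Shares over all genes were not worked out for the counts of this paragraph.

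**Figure D1:**
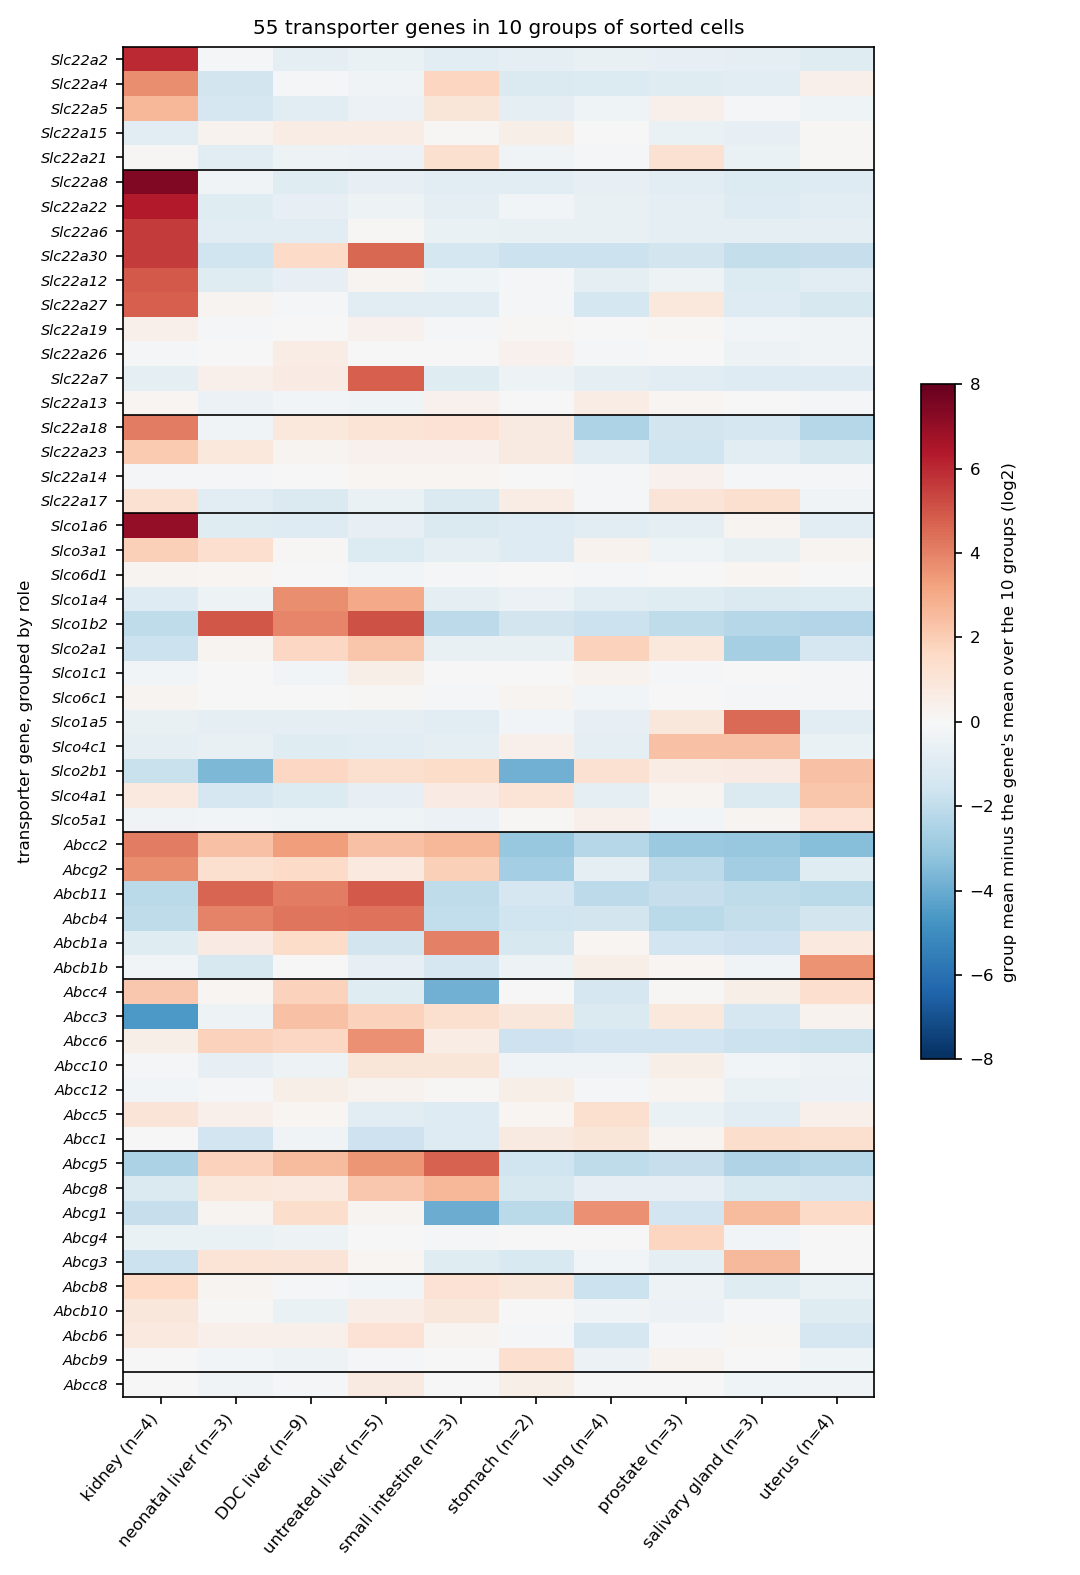
Mean log2 level of each of the 55 members in the 10 groups of sorted cells, shown as the difference from the member's own mean over the groups (colour, log2 units, red higher and blue lower), with members in rows by role. Strong red blocks include organic anion carriers, Slc22a2 and Slco1a6 in kidney cells and Slco1b2, Abcb11 and Slc22a7 in untreated liver cells.

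Each organ's sorted cells were set against the mean of the other 7 organs, and a gene was called with limma at a Benjamini-Hochberg adjusted p under 0.05 over all genes tested and a log2 difference of at least 1. The 8 organ comparisons share samples. Of the 55 members, 48 passed the filter on low values and were tested. In kidney cells 19 members rose and 9 fell, where 16.3% of all genes tested were called higher and 17.2% lower (33.5% in either direction). The median log2 difference was -0.08 over all members and -0.09 over all genes. The higher members were uptake carriers above all: 6 of the 10 organic anion and urate carriers, 3 of the 5 cation and carnitine carriers and 3 of the 4 Slc22a genes with less settled substrates. No member of the Abcg5, Abcg8, Abcg1, Abcg3 and Abcg4 group rose and 4 fell. In 16 of the 19 higher members, every kidney sample exceeded every sample of the other organs. The same held for 999 of the 2139 genes called higher (7.62% of all genes tested).

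Slc22a8, which takes organic anions from blood into proximal tubule cells in exchange for dicarboxylates, had log2 levels of 11.10, 11.14, 11.22 and 11.13 in the kidney samples, against 2.60 to 3.40 in the 24 samples of the other 7 organs. Only the kidney samples lay above background, and the log2 difference was 8.27 ± 0.12 (SE; adjusted p = 5.5e-35). Slc22a6, its partner in the same membrane and the classical para-aminohippurate carrier, read 9.61, 9.61, 9.78 and 9.55 in kidney cells, against at most 5.65 in the other organs, a log2 difference of 6.15 ± 0.21 (adjusted p = 1.3e-23). The genes for these carriers lie close together on chromosome 19. Their promoters, shown because these are the classical anion uptake carriers of the tubule, each hold GTTAAT, the core of the site bound by Hnf1 factors, which is in capitals. They come from RefSeq on GRCm38.p6, with the start site after base 250, at chr19:8592932-8593231 for Slc22a8 and chr19:8617746-8618045 for Slc22a6, both on the plus strand.
Slc22a8: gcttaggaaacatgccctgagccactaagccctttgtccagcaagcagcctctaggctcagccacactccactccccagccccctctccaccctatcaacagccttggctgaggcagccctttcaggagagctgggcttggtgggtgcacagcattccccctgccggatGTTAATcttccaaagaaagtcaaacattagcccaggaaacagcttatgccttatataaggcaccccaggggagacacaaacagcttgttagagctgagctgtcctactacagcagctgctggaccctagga
Slc22a6: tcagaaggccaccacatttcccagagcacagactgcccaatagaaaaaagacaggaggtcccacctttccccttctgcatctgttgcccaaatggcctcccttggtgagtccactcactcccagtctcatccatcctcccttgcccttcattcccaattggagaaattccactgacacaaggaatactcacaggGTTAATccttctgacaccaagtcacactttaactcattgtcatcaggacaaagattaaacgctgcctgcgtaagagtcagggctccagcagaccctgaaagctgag
The motif, searched on both strands, begins 81 bases before the start in Slc22a8 and 56 bases before it in Slc22a6. It was found in 7.1% of the 32851 promoters of this length and in 3 of the 54 promoters that RefSeq gave for 44 of the members, the third being that of Slco1b2. A match is a description of these letters only.

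The other organic anion carriers of kidney cells had similar spreads. Slc22a22, a prostaglandin carrier of the mouse proximal tubule, read 10.43, 10.40, 10.31 and 10.30 in kidney cells, against 2.76 to 4.33 in the other organs, a log2 difference of 7.01 ± 0.20 (SE; adjusted p = 7.1e-26). Slc22a12, the urate carrier of the tubule's brush border, read 9.08, 9.08, 9.16 and 9.18 in kidney cells, against at most 4.90 elsewhere (log2 difference 5.37 ± 0.19, adjusted p = 2.4e-23). Slc22a27, a rodent organic anion carrier, read 8.83, 9.05, 8.75 and 8.91 in kidney cells and reached 6.05 in a prostate sample (log2 difference 5.48 ± 0.43, adjusted p = 6.1e-13). None of these 3 genes overlapped between kidney and the other organs. Slc22a30 did: its log2 levels of 10.76, 10.74, 10.66 and 10.60 in kidney cells stood beside 8.67, 8.19, 10.80, 10.58 and 10.46 in untreated liver cells, and 3.08 to 3.89 in the other 6 organs. Slc22a7, an anion carrier that mouse kidney is known to express, stayed at 2.93 to 3.29 in kidney cells, and Slc22a19 lay under the filter value in every group. Neither Slc22a7 (log2 difference -0.74 ± 0.52, adjusted p = 0.23) nor Slc22a13 was called.

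Among cation and carnitine carriers, Slc22a2, which loads tubule cells with organic cations from blood, read 9.75, 9.90, 9.76 and 9.83 in kidney cells, against at most 4.09 in the other organs. Its log2 difference was 6.69 ± 0.16 (SE; adjusted p = 1.6e-28). Slc22a4, an ergothioneine carrier, read 8.04, 8.25, 8.24 and 8.07 in kidney cells, against at most 6.69 elsewhere, in small intestinal cells (log2 difference 4.04 ± 0.30, adjusted p = 7.9e-14). Slc22a5, the carnitine carrier that is mutated in juvenile visceral steatosis mice, was present in every organ and still highest in kidney cells, at 11.30, 11.20, 11.13 and 11.20 against 7.67 to 9.91. Its log2 difference of 2.76 ± 0.17 (adjusted p = 5.7e-16) is a ratio between levels above background. The orphan carrier Slc22a18, an imprinted gene, read 11.58, 11.60, 11.47 and 11.58 in kidney cells against at most 9.63 elsewhere, a log2 difference of 4.72 ± 0.47 (adjusted p = 2.3e-10). Slc22a23 (2.58 ± 0.42) and Slc22a17, a receptor for lipocalin 2 (1.11), rose as well.

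Of the organic anion transporting polypeptides, 2 rose in kidney cells. Slco1a6 read 10.93, 10.77, 10.76 and 10.94, against 2.39 to 4.26 in the other organs, a log2 difference of 7.74 ± 0.19 (SE; adjusted p = 4.5e-28). Slco3a1 rose by a log2 difference of 2.40 ± 0.42 (adjusted p = 1.1e-05). Slco4c1, a carrier of the renal basolateral membrane in rat and human, read 2.82, 3.10, 3.18 and 2.92 in kidney cells and was called lower at -1.12 ± 0.14, against a mean in which prostate and salivary gland cells held 5.75 to 6.79. Slco2b1 and the prostaglandin carrier Slco2a1 fell by 2.34 and 1.67.

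Of the 6 canalicular and apical pumps 2 rose and 1 fell in kidney cells, and of the 7 basolateral and other multidrug resistance proteins 2 rose and 1 fell. Abcg2, which exports urate and drugs, read 11.34, 11.41, 11.30 and 11.21 in kidney cells, against 4.66 to 9.85 in the other organs, a log2 difference of 4.68 ± 0.31 (SE; adjusted p = 4.6e-15). Abcc2 read 10.42, 10.27, 10.27 and 10.30, against at most 9.98 in the other organs, where liver and small intestinal cells also held it (log2 difference 5.48 ± 0.60, adjusted p = 1.4e-09). Abcc4, an exporter of cyclic nucleotides and urate, read 9.26, 9.21, 9.16 and 9.26, against at most 8.84 (log2 difference 2.78 ± 0.45, adjusted p = 3.5e-06). Kidney cells lay above all other organ samples in these 3 genes. Abcc3, a basolateral exporter of conjugates, was the reverse: it read 3.70, 4.05, 3.53 and 3.72 in kidney cells, at background, against 6.07 to 11.11 in all other organs. Its log2 difference was -4.99 ± 0.32 (adjusted p = 1.6e-15). Of the 9 lower calls, 6 were of genes whose kidney level was at background, and leaving out 1 kidney sample ended those of Abcb4 (-1.05 without sample 1, likewise 3 or 4), Abcg8 (-1.0 without sample 1, likewise 3 or 4) and Abcg3 (-1.61 without sample 1, likewise 2). The mitochondrial transporter Abcb8 (1.84 ± 0.26) and Abcc5 (1.23) rose. With the mean of all probe sets of a gene in place of the highest one, the calls of Abcc5 (0.29), Slco2a1 (-0.98) and Abcg3 (-1.11) ended and Slco2b1 was at -1.22, and with median centring that of Abcb4 ended (-1.07).

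The partner genes of renal solute transport, a list of 16 other carriers of which 15 were tested, had 14 members higher and 0 lower in kidney cells by limma, led by the lactate carrier Slc5a12 (log2 difference 8.99), Slc17a1 (7.80), the sulfate carrier Slc13a1 (7.74) and the neutral amino acid carrier Slc6a19 (7.67). Of 11 tested drug transport and regulator genes 6 rose and 3 fell, with the cation extruder Slc47a1 at 7.45, the scaffold Pdzk1 at 6.48, the transcription factor Hnf4a at 4.97 and Gsta2 at 4.52. Of 14 bile acid and sterol partners 4 rose and 4 fell. The actin 3' minus 5' log2 difference, a measure of RNA quality, was 1.67 to 1.80 in kidney cells, 1.05 to 1.73 in untreated liver cells and 0.41 to 1.37 in the other sorted organs. It was 0.54 to 1.39 in DDC liver cells, 0.72 to 0.86 in neonatal liver cells and 0.67 to 1.29 in HCC/CC tumours. Small intestinal adenomas had 0.49 to 0.68, against 0.70 to 1.19 in small intestinal cells. The part of RNA quality in these results and in the later comparisons was not tested.

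**Figure D2:**
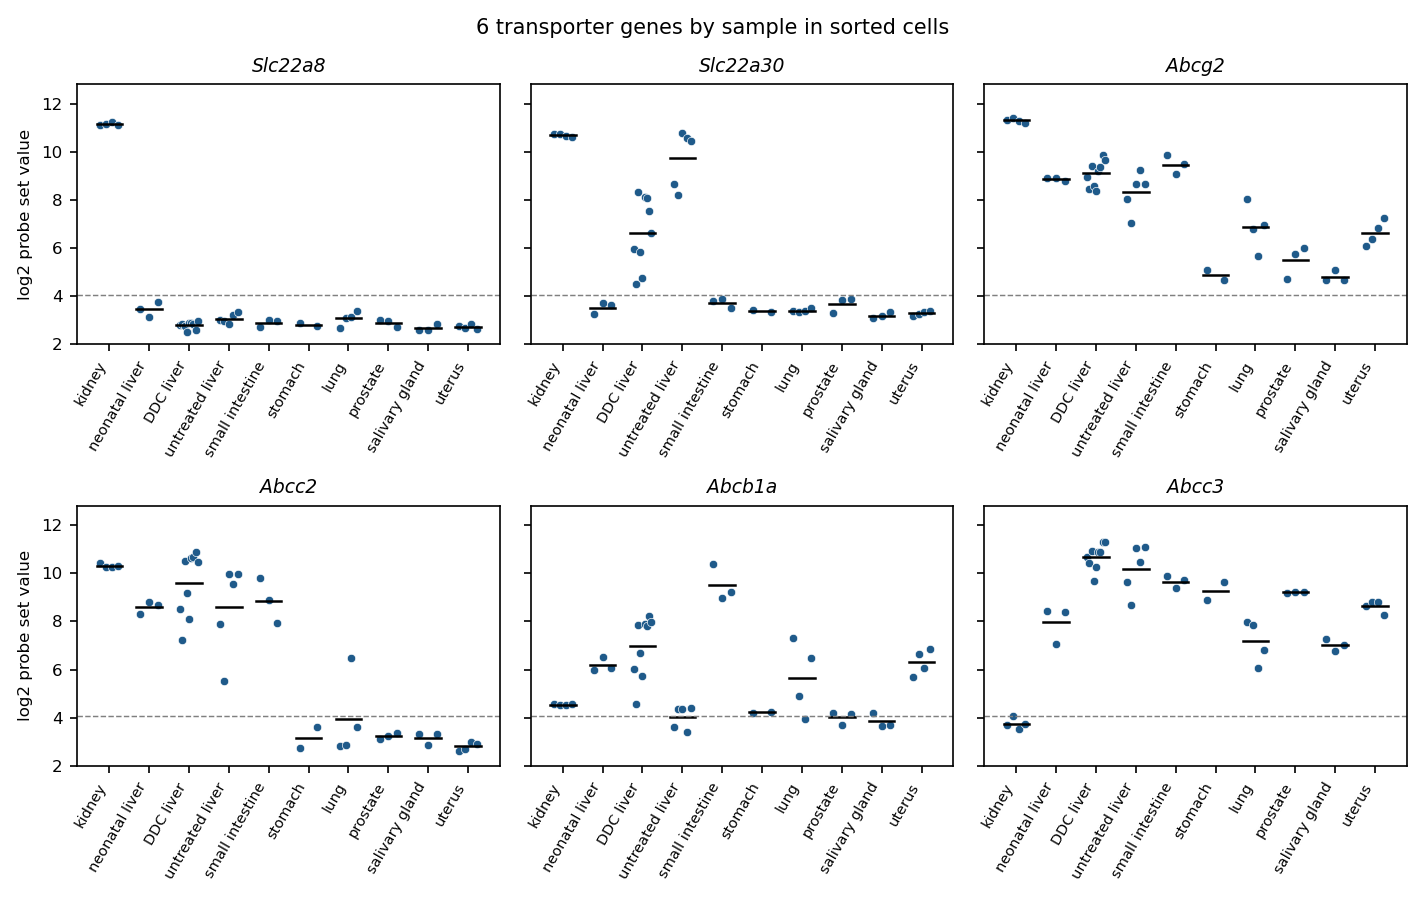
Log2 level (vertical axes) of Slc22a8, Slc22a30, Abcg2, Abcc2, Abcb1a and Abcc3 in every sample of the 10 sorted groups (horizontal axes); points are samples, black bars group means and the dashed line the filter value of 4.06. Slc22a8 is above the line in kidney cells only, while Abcc3 is below it only there.

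In untreated liver cells 16 members rose and 7 fell against the other organs, beside 10.1% of all genes called higher and 18.2% lower (28.3% in all). The median log2 difference was 0.08 over the members and -0.1 over all genes. By role, 4 of the 6 canalicular and apical pumps rose and 1 fell, Abcg5 and Abcg8 rose among the 5 sterol transporters and their relatives, and 4 of the 13 organic anion transporting polypeptides rose and 5 fell. In 5 of the 16 higher members all liver samples exceeded all other samples, namely Slco1b2, Abcb11, Abcb4, Slc22a7 and Abcc6. The same held for 217 of the 1324 genes called higher (1.66% of all genes tested).

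Abcb11, the bile salt export pump, read 8.18, 8.27, 11.37, 11.06 and 11.06 in liver samples 1 to 5, against 2.71 to 3.93 in the other organs, a log2 difference of 6.83 ± 0.48 (SE; adjusted p = 3.5e-14). Abcb4, the phospholipid floppase of the canaliculus, read 8.91, 7.71, 10.96, 10.81 and 10.25, against 2.97 to 4.45 (log2 difference 6.15 ± 0.42, adjusted p = 2.2e-14). Slco1b2, the hepatocyte's main carrier of this family for bile acids and statins, read 10.10, 8.77, 11.38, 11.39 and 10.87, against 3.02 to 4.27 (log2 difference 7.06 ± 0.43, adjusted p = 5.7e-16). Samples 1 and 2, rich in endothelial markers, were the low ones in each of these genes, and the part of the cell mixture in this was not tested. The Slco1b2 probe set can match several transcripts, and the least similar of its other probe sets correlated with it at 0.273 over group means. The promoters of Abcb11 (chr2:69342567-69342866, minus strand) and Slco1b2 (chr6:141629268-141629567, plus strand; RefSeq, GRCm38.p6) are shown as those of the bile salt exporter and of an uptake carrier, with a nuclear receptor core, AGGTCA read here as TGACCT, in capitals in Abcb11 and GTTAAT in capitals in Slco1b2.
Abcb11: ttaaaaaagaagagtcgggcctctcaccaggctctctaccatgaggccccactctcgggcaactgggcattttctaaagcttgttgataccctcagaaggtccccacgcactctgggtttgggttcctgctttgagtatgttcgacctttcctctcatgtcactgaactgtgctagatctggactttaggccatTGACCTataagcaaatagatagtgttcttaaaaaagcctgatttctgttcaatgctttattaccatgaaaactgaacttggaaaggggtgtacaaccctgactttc
Slco1b2: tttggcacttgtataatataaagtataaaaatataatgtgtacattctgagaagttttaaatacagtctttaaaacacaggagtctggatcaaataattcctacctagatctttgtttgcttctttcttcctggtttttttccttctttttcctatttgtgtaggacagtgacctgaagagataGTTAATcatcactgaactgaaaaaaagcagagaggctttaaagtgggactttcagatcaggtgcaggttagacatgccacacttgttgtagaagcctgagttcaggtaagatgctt
The capitals begin 56 bases before the start in Abcb11 and 66 bases before it in Slco1b2. AGGTCA, on either strand, was in 16.3% of the 32851 promoters and in 11 of the 54 promoters of members. That of Slco1b2 is among them, and its TGACCT is left in small letters above. CAAAGTCCA, a longer motif of Hnf4a, was in 0.475% of all promoters and in 0 of the 54.

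Slc22a7, an anion carrier of the hepatocyte, varied widely among liver samples, at 7.05, 6.95, 11.48, 9.79 and 7.96, against 2.58 to 3.71 in the other organs (log2 difference 5.61 ± 0.48, SE; adjusted p = 5.1e-12). Slc22a30 rose by 5.26 ± 0.42 (adjusted p = 1.1e-12), with the levels given for kidney. Abcc6, whose loss causes ectopic mineralization, read 6.33, 6.04, 9.77, 9.05 and 9.06, against at most 5.36 (log2 difference 4.66 ± 0.49, adjusted p = 6.4e-10). Slco1a4, another bile acid and drug carrier, read 6.41, 4.11, 9.71, 8.58 and 7.60 in liver cells, and its sample 2 overlapped stomach cells at 4.27 (log2 difference 3.91 ± 0.54, adjusted p = 2.5e-07). Abcc2 read 7.89, 5.52, 9.96, 9.56 and 9.98 and overlapped small intestinal cells (log2 difference 3.51 ± 0.54, adjusted p = 1.7e-06). The basolateral exporter Abcc3 read 9.62, 8.67, 11.05, 10.47 and 11.11 and rose by 2.37 ± 0.29 (adjusted p = 2.0e-08). Slco2a1 rose by 2.79 ± 0.36, Abcb6, a porphyrin transporter, by 1.43, and Abcg2 by 1.26 ± 0.28. Slco2b1 rose by 1.22 ± 0.43 (adjusted p = 0.016), and Slc22a18 by 1.31. The first of these calls ended without liver sample 3 (0.81, adjusted p = 0.13), 4 or 5 and the second without sample 3 (1.05) or 4 (1.09). Both also ended with the mean of all probe sets (0.72 and 0.83), where Slco1b2 was at 3.43 and Slco2a1 at 1.5, and Slco2b1 also ended with cross-hybridising probe sets left out (0.86). Without the endothelial-rich samples Slco2b1, Slc22a18 and Abcb6 were at 2.28, 2.18 and 2.18.

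The lower members in liver cells were Abcc1, an exporter of glutathione conjugates (-2.16), Abcb1a (-1.42) and 5 organic anion transporting polypeptides (Slco4c1, Slco4a1, Slco1a5, Slco3a1 and Slco1a6, -1.19 to -1.01), and 4 of the 7 were at background in liver. The 4 polypeptides other than Slco4c1 lay near the size threshold, and leaving out 1 sample ended the call for 3 to 8 of the samples. Abcc4 was not called (log2 difference -0.82 ± 0.41, adjusted p = 0.092), but its liver levels fell into separate ranges: 8.33 and 8.38 in samples 1 and 2, against 4.36, 4.34 and 4.94 in samples 3 to 5. Without the endothelial-rich samples it was called lower, at -2.34 (adjusted p = 3.0e-08), with 18 members higher and 9 lower in all, while Slco1a5 and Slco4a1 were no longer called and Slco3a1 was at -1.89. With the mean of all probe sets Slco1a5 (-0.54) and Slco3a1 (-0.44) lost their calls and Abcc1 was at -1.44. Of 14 tested bile acid and sterol partners 9 rose and 1 fell in liver cells, led by Slc27a5 (log2 difference 8.0), the bile salt uptake carrier Slc10a1 (7.43), Baat (5.96) and Cyp8b1 (5.56). Of 11 drug transport and regulator genes 7 rose and 0 fell by limma, among them Nr1i3 (4.75), Slc47a1 (4.56) and Hnf4a (4.27), and of 15 renal partners 5 rose and 5 fell.

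In small intestinal cells 11 members rose and 13 fell, beside 14.3% and 15.1% of all genes (29.4% in all), and the median log2 difference was -0.11 over the members and 0.03 over all genes. Higher members were apical pumps (3 of 6), the sterol exporters Abcg5 and Abcg8, the carriers Slc22a4 and Slc22a21 and a few others. Of the 13 lower members 10 were at background in this organ.

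Abcg5 and Abcg8 pair to form the sterol exporter of enterocytes and hepatocytes. Abcg5 read 10.29, 9.84 and 9.61 in small intestinal cells, against 2.49 to 3.82 outside liver cells, which read 7.97, 6.36, 9.73, 9.50 and 9.97. Abcg8 read 7.40, 7.33 and 7.52 in small intestinal cells, against 6.47, 4.68, 7.60, 8.0 and 8.06 in liver cells and at most 5.19 in the other 6 organs. The log2 differences were 6.02 ± 0.61 (SE; adjusted p = 6.2e-10) and 3.24 ± 0.51 (adjusted p = 2.9e-06) in small intestinal cells, and 4.64 ± 0.50 (adjusted p = 1.2e-09) and 2.71 ± 0.41 (adjusted p = 1.0e-06) in liver cells. The genes lie head to head on chromosome 17, and their promoter windows share the 209 bases below (chr17:84682962-84683170, plus strand, RefSeq, GRCm38.p6), shown because the genes were high in the same organs. The capitals mark AGATAA, a motif of GATA factors, on either strand.
Abcg5 and Abcg8: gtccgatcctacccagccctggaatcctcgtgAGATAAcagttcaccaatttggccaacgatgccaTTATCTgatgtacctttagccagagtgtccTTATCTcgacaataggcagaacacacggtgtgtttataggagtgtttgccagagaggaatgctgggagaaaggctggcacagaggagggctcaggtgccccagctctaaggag
The stretch holds 3 matches, in a set of promoters where 11.2% hold at least 1. In kidney cells the pair read 2.68 ± 0.27 for Abcg5 and 3.60 ± 0.33 for Abcg8 (SD, n = 4), in both cases at background, as in lung, prostate, salivary gland, stomach and uterus cells for Abcg5. Means of Abcg8 in those 5 organs were 4.12 ± 0.76 in lung (n = 4), 4.11 ± 0.18 in prostate (n = 3), 3.56 ± 0.22 in salivary gland (n = 3), 3.48 in stomach (n = 2) and 3.44 ± 0.32 in uterus (n = 4). In the other liver groups Abcg5 and Abcg8 averaged 7.76 ± 1.51 and 5.54 ± 1.06 after DDC (n = 9), and 7.05 ± 1.54 and 5.64 ± 1.17 in neonatal cells (n = 3).

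Abcb1a, the drug efflux pump of the gut brush border, read 10.40, 8.96 and 9.23 in small intestinal cells, against 3.41 to 7.32 in the other organs. The groups did not overlap, and the log2 difference was 4.87 ± 0.52 (SE; adjusted p = 1.6e-09). Its duplicate Abcb1b read 3.47, 3.71 and 3.33 there, below every sample of the other organs (3.84 to 11.21). The log2 difference of Abcb1b was -1.71 ± 0.54 (adjusted p = 0.01), a call that ended without small intestinal sample 3 (-1.62, adjusted p = 0.054) and with the mean of all its probe sets (-0.99). Both copies were called higher in uterus cells: Abcb1b read 7.01, 11.21, 9.67 and 5.80 there (log2 difference 3.91 ± 0.48, adjusted p = 4.4e-08, and 2.28 with the mean of its probe sets) and Abcb1a 5.69, 6.64, 6.06 and 6.84 (1.19 ± 0.46, adjusted p = 0.036). The Abcb1a call ended without uterus sample 2 (1.08), 3 (1.27) or 4 (1.01) and with quantile normalization (1.02, adjusted p = 0.094). Means of Abcb1a and Abcb1b elsewhere were 4.54 ± 0.02 and 4.60 ± 0.23 in kidney cells (SD, n = 4), 5.66 ± 1.51 and 5.31 ± 1.0 in lung cells (n = 4), 4.01 ± 0.27 and 5.0 ± 1.05 in prostate cells (n = 3), 3.85 ± 0.31 and 4.57 ± 0.38 in salivary gland cells (n = 3), 4.22 and 4.40 in stomach cells (n = 2). In liver they were 6.97 ± 1.28 and 4.81 ± 0.31 after DDC (n = 9), 6.18 ± 0.31 and 3.52 ± 0.39 in neonatal cells (n = 3) and 4.03 ± 0.47 and 4.19 ± 0.38 in untreated cells (n = 5). The genes are close copies, so a probe set may also read the other gene.

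Abcc2 read 9.79, 8.89 and 7.94 in small intestinal cells (log2 difference 3.84 ± 0.67, SE; adjusted p = 1.8e-05), and Abcg2 read 9.85, 9.07 and 9.50 (2.57 ± 0.35, adjusted p = 2.3e-07). Kidney cells exceeded them in these genes. Abcc3 rose by 1.76 ± 0.36 (adjusted p = 1.3e-04). Abcc4, by contrast, read 3.38, 3.25 and 2.90, at background and below every sample of the other organs (4.27 to 9.26), with a log2 difference of -4.13 ± 0.51 (adjusted p = 4.1e-08). Abcg1, which passes cholesterol to lipoproteins, read 3.77, 4.05 and 3.63, against 5.52 to 12.32, a log2 difference of -4.28 ± 0.57 (adjusted p = 1.6e-07). Slc22a4 read 6.69, 5.59 and 6.17 and rose by 1.75 ± 0.33 (adjusted p = 5.9e-05), while its neighbour Slc22a5, at 9.91, 9.32 and 9.32, was not called. Slc22a21, the testis carnitine carrier, rose by 1.28 and Abcb8 by 1.36. Slc22a18 and Slco2b1 each rose by 1.40, calls that ended without small intestinal sample 1 (1.02 and 1.42, adjusted p = 0.22 and 0.085), as they did without sample 3 and, for Slco2b1, sample 2. The calls of Abcb8 (0.82), Slc22a18 (0.98) and Slco2b1 (0.70) ended with the mean of all probe sets, that of Slco2b1 also without cross-hybridising probe sets (0.93) or with only the sorted organs compared in the fit (1.40, adjusted p = 0.05).

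For the carnitine pair in the remaining sorted groups, Slc22a4 averaged 3.30 ± 0.41 in lung (SD, n = 4), 3.47 ± 0.77 in prostate (n = 3), 3.57 ± 0.27 in salivary gland (n = 3), 3.28 in stomach (n = 2), 4.83 ± 0.40 in uterus (n = 4), 4.31 ± 0.78 in DDC liver (n = 9), 2.94 ± 0.11 in neonatal liver (n = 3) and 4.16 ± 0.59 in untreated liver cells (n = 5). Slc22a5 averaged 8.21 ± 0.36 in lung, 8.92 ± 0.11 in prostate, 8.43 ± 0.06 in salivary gland, 7.82 in stomach, 8.18 ± 0.14 in uterus, 7.70 ± 0.38 in DDC liver, 7.20 ± 0.31 in neonatal liver and 8.06 ± 0.35 in untreated liver cells. Means of Slc22a4 were above the filter value in kidney, small intestine, uterus, DDC liver and untreated liver cells, while those of Slc22a5 were above it in every sorted group.

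Of 14 tested bile acid and sterol partners 5 rose and 0 fell by limma in small intestinal cells, with the sterol uptake protein Npc1l1 at a log2 difference of 6.42, the basolateral bile acid carrier subunits Slc51a and Slc51b at 4.81 and 3.85 and Atp8b1 at 3.01. Of 11 drug transport and regulator genes 9 rose and 0 fell (Gsta2 5.52, Hnf4a 4.91, Nr1i2 3.82). Of 15 renal partners 9 rose and 5 fell, led by Slc7a9 (6.17), Slc13a1 (6.06), the glucose carriers Slc5a1 (5.56) and Slc2a2 (5.27).

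The other 5 organs had fewer members higher than lower. Lung cells had 4 higher and 14 lower (12.8% and 18.6% of all genes, 31.4% in all), prostate cells 5 and 12 (10.4% and 7.26%, 17.7% in all), salivary gland cells 6 and 16 (10.9% and 9.57%, 20.4% in all), stomach cells 3 and 10 (9.08% and 10%, 19.1% in all) and uterus cells 8 and 19 (15.3% and 7.38%, 22.7% in all). Median log2 differences of the members were -0.49, -0.3, -0.63, -0.27 and -0.57 in that order, beside -0.06, 0.01, -0.14, 0.03 and -0.07 over all genes. Most lower calls were of genes at background in the organ (9 of 14, 8 of 12, 10 of 16, 7 of 10 and 14 of 19), set against a mean that holds kidney, liver and small intestine. The stomach counts rest on 2 samples, and leaving out stomach sample 1 or 2 left 8 or 7 members called in place of 13.

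In lung cells Abcg1 read 10.45, 12.08, 12.32 and 10.91, against 3.63 to 10.34 in the other organs, a log2 difference of 4.43 ± 0.50 (SE; adjusted p = 9.2e-09). Macrophage marker levels were 8.37 to 10.12 in lung, 9.69 to 10.20 in uterus and 8.63 to 9.0 in salivary gland cells, the organs with Abcg1 called higher. They were 4.47 to 5.85 in kidney, small intestinal and stomach cells. Prostate cells had levels of 8.0 to 9.55 with Abcg1 at 5.73 to 6.78. The part of these levels was not tested. Slco2a1 rose by 2.38 in lung cells and Abcc5 by 1.52, and Slco2b1 by 1.12, a call that ended without lung sample 2 (0.59) or 3 (0.92) and without 1 of 4 samples of other organs (adjusted p = 0.051 to 0.055). With the mean of all probe sets the lung calls of Abcc5 (0.85) and Slco2b1 (0.72) ended and Slco2a1 was at 1.49, and that of Slco2b1 also ended with median centring (1.0) or with only the organs compared in the fit (adjusted p = 0.066). In salivary gland cells Slco1a5, a bile acid and thyroid hormone carrier, read 8.30, 8.12 and 8.32, against 2.59 to 6.09 elsewhere (log2 difference 4.93 ± 0.23, adjusted p = 3.5e-19). The same cells held the rodent gene Abcg3 at 7.27, 7.39 and 7.0, above all samples of the other organs (2.74 to 5.74), with a log2 difference of 3.26 ± 0.69 (adjusted p = 3.4e-04), and Slco2a1 at 5.55, 5.54 and 5.42, below all of them (log2 difference -2.74 ± 0.45, adjusted p = 1.1e-05). Slco4c1 was shared between prostate cells, at 5.85, 5.75 and 6.79 (log2 difference 2.45 ± 0.15, adjusted p = 3.1e-15), and salivary gland cells, at 5.85, 6.26 and 6.39 (2.49 ± 0.15). The salivary values were 3.09 for Slco1a5 and -1.33 for Slco2a1 with the mean of all probe sets.

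Prostate cells alone among the organs lay above the filter value in Abcg4, a sterol transporter known from neurons, at 5.84, 6.15 and 4.76 against at most 4.31 in the other organs. Its log2 difference was 1.86 ± 0.19 (SE; adjusted p = 1.6e-09), and 0.99 with the mean of its probe sets. Stomach cells held the lysosomal peptide transporter Abcb9 at 5.48 and 5.25, against at most 4.78 (log2 difference 1.47 ± 0.21, adjusted p = 1.0e-06), and lacked Slco2b1, at 3.68 and 3.54 against 5.34 to 10.38 (log2 difference -4.66 ± 0.63, adjusted p = 5.8e-07, and -2.18 with the mean of its probe sets). Uterus cells were higher in Slco2b1 (2.39, and 1.22 with the mean of its probe sets), in the thyroid hormone carrier Slco4a1 (8.54, 7.09, 6.51 and 7.72, log2 difference 2.20 ± 0.31), in Abcg1 (2.0) and in Abcc4 (1.84). In their list counts, renal partners had 0, 1, 1, 0 and 0 higher and 10, 13, 11, 10 and 12 lower of 15 in lung, prostate, salivary gland, stomach and uterus cells. Bile acid and sterol partners had 0, 1, 0, 2 and 0 higher and 4, 5, 6, 2 and 5 lower of 14, and drug transport and regulator genes 1, 1, 0, 3 and 1 higher and 8, 7, 6, 3 and 8 lower of 11.

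After DDC, 36 members were tested in liver cells, of which 5 rose and 6 fell against untreated liver cells, beside 16.2% of all genes higher and 5.49% lower (21.7% in all). The median log2 difference was -0.1 over the members and -0.01 over all genes. The higher members were the exporters Abcb1a, Abcc1, Abcc4 and Abcc5 and the carrier Slco3a1, and the lower ones the uptake carriers Slc22a7 and Slc22a30 with Abcb10, Abcc6, Abcc10 and Abcg8. Abcb1a read 6.04, 4.58, 7.85, 6.68, 5.72, 7.91, 7.79, 8.23 and 7.96 in DDC samples 1 to 9, against 3.62, 4.34, 4.36, 3.41 and 4.40 in untreated samples 1 to 5. Every DDC sample was above every untreated one, with a log2 difference of 2.95 ± 0.47 (SE; adjusted p = 8.6e-06). Abcc4, which can export bile acids across the basolateral membrane, ranged from 8.53 to 9.08 (median 9.01) after DDC, again above all untreated samples (4.34 to 8.38), a log2 difference of 2.84 ± 0.47 (adjusted p = 1.3e-05). The untreated samples nearest to it were the endothelial-rich ones, without which the difference was 4.30.

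Slc22a7 fell to 3.16, 3.23, 5.75, 4.01, 3.46, 5.61, 5.78, 4.95 and 4.89 in DDC samples, against 6.95 to 11.48 in untreated ones, a log2 difference of -4.11 ± 0.54 (SE; adjusted p = 3.9e-07) without overlap. Slc22a30 ranged from 4.49 to 8.34 (median 6.62) after DDC, against 8.19 to 10.80, and fell by 3.10 on the log2 scale (SE 0.47, adjusted p = 4.6e-06). Abcc10 fell as well, by 1.40, with no overlap but at levels of 3.49 to 4.02 near background, and by 0.98 without untreated sample 5. Abcc6 fell by 1.95 (adjusted p = 0.0047) and Abcg8 by 1.42 (adjusted p = 0.013), the last a call that ended without untreated sample 4 (-1.16, adjusted p = 0.061) or 5 (-1.15, adjusted p = 0.064). Abcc1 (1.36), Slco3a1 (1.19) and Abcc5 (1.04) rose and Abcb10 fell (-1.06), and each of these calls ended without untreated sample 4, at 0.94, 1.02, 0.73 and -0.78. They also ended without untreated sample 5 (1.21, 0.83, 0.88 and -0.98), those of Abcc1 and Slco3a1 without untreated sample 3, and 3 of the 4 without some DDC samples (1, 2, 4 or 5 for Abcc5, 4 for Slco3a1 and 9 for Abcb10). Averaging all probe sets ended the calls of Abcc1 (0.85), Abcc5 (0.28), Slco3a1 (0.90) and Abcb10 (-0.90), and a fit of only these groups those of Abcc1, Abcc5, Slco3a1, Abcc6 and Abcg8 (adjusted p = 0.063 to 0.13). With quantile normalization that of Abcc5 ended (0.98). The count of 11 called members fell to 7 without untreated sample 4 and to 6 without untreated sample 5.

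For the rest of the bile handling set after DDC, the log2 differences were -0.75 for Abcb11 (adjusted p = 0.26), -0.05 for Abcb4 (0.94), 0.99 for Abcc2 (0.19), 0.52 for Abcc3 (0.2), 0.77 for Abcg2 (0.049, under the size threshold), -0.95 for Abcg5 (0.17), 0.70 for Slco1a4 (0.37), -1.15 for Slco1b2 (0.052) and 0.33 for Slco2b1 (0.61). None was called. Bile duct marker levels ranged from 3.29 to 7.99 in DDC samples and from 3.58 to 4.46 in untreated ones, and hepatocyte levels from 11.02 to 13.09 and from 11.96 to 13.23, and their part in the results was not tested. Without the endothelial-rich samples 7 members rose and 8 fell. Of 11 tested bile acid and sterol partners 3 rose and 3 fell, with Cyp8b1, the sterol 12-alpha hydroxylase, at -4.98, Slc10a1 at -1.72, Cyp7a1 at 2.08 and Slc51b at 1.68. Of 11 drug transport and regulator genes 2 rose and 1 fell (Gsta2 4.24, Nr1i3 -1.82), and of 9 renal partners 3 rose and 2 fell. Slc22a27 and Slc22a26, which failed the filter here, were chosen after their values were seen: DDC samples 3, 6 and 7 held Slc22a27 at 5.95, 5.31 and 5.74 and Slc22a26 at 5.71, 4.32 and 5.14, against at most 3.28 and 3.46 in the other 6.

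In neonatal liver cells 37 members were tested, of which 3 rose and 11 fell against untreated liver cells, beside 22% of all genes higher and 8.63% lower (30.7% in all). The median log2 difference was -0.34 over the members and -0.01 over all genes. The lower members were mostly uptake carriers: 4 of the 10 organic anion and urate carriers and 3 of the 13 organic anion transporting polypeptides. Slc22a30 read 3.25, 3.71 and 3.62 in neonatal samples, all at background, against 8.19 to 10.80 in untreated ones (log2 difference -6.21 ± 0.62, SE; adjusted p = 1.2e-09). Slco2b1 read 4.43, 3.15 and 4.0, against 7.58, 6.73, 10.38, 9.57 and 9.47 (log2 difference -4.89 ± 0.63, adjusted p = 1.9e-07). Slc22a7 read 3.41, 6.29 and 3.22, and Abcc3 8.44, 7.06 and 8.41, both below all untreated samples (log2 differences -4.34 ± 0.70, adjusted p = 8.2e-06, and -2.21 ± 0.43, adjusted p = 9.3e-05). Slco2a1 read 8.24, 8.44 and 8.41 and fell by 1.98 (adjusted p = 0.0032). Slco1a4 read 3.65, 4.41 and 3.46 and fell by 3.44, with overlap at untreated sample 2. Abcc10 (-1.65), Slc22a12 (-1.23), Slc22a4 (-1.22) and Slc22a6 (-1.01, and -0.91 without neonatal sample 1) fell to levels at background. The last 3 were already near background in untreated samples, at 3.68 to 4.9 for Slc22a12 and 3.4 to 4.92 for Slc22a4. Slc22a6 read 5.65 in untreated sample 1 and 3.5 to 3.96, under the filter value, in samples 2 to 5. These 3 differences are therefore not measured ratios, and Slc22a12 and Slc22a6 are among the 4 organic anion and urate carriers counted above. Abcc6 fell by 1.77 (adjusted p = 0.044), a call that ended without neonatal sample 1 or 3 or untreated sample 3, 4 or 5 (-1.58 to -1.30). With the mean of all probe sets the call of Slco2a1 ended (-0.90) and Slco2b1 was at -2.76. With only these groups in the fit the calls of Abcc10, Slc22a6 and Abcc6 ended (adjusted p = 0.053, 0.13 and 0.19), as did those of Slc22a6 (-0.97) and Abcc6 (-1.73) with median centring and that of Abcc6 with no filter (adjusted p = 0.054), while Abcc6 was at -3.02 without the endothelial-rich samples.

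Higher in neonatal cells were Slco3a1, a prostaglandin and thyroxine carrier, at 7.73, 6.55 and 7.48 against 3.44 to 6.20 (log2 difference 2.41 ± 0.56, SE; adjusted p = 8.5e-04), Abcb1a at 5.96, 6.53 and 6.05 against 3.41 to 4.40 (2.15 ± 0.62, adjusted p = 0.0052), and Abcc5 (1.29, adjusted p = 0.012). The Abcc5 call ended without neonatal sample 1 (1.12) or untreated sample 4 (0.98), with the mean of its probe sets (0.41) and with only these groups in the fit (adjusted p = 0.093). The following members of the bile handling set were not called. Abcb11 read 9.59, 10.21 and 9.53, and Slco1b2 9.85, 11.34 and 10.00, within the range of the untreated samples. Their log2 differences were -0.21 (adjusted p = 0.83) and -0.11 (0.9), beside -0.36 for Abcb4 (0.67), 0.01 for Abcc2 (1), 1.10 for Abcc4 (0.15), 0.54 for Abcg2 (0.3), -1.66 for Abcg5 (0.066) and -1.32 for Abcg8 (0.076). These values depended on untreated samples 1 and 2. Without the endothelial-rich samples 7 members rose and 19 fell, with Abcb11 (-1.39), Abcb4 (-1.30), Abcc2 (-1.25), Abcg5 (-2.69) and Abcg8 (-2.24) called lower and Abcc4 (2.62) higher. Bile duct markers were at 8.20 to 9.08 in neonatal samples against 3.58 to 4.46, and their part was not tested. Of 11 bile acid and sterol partners 0 rose by limma and 3 fell (Cyp27a1 -3.58, Baat -2.54), of 10 renal partners 3 rose and 1 fell (Slc13a3 4.39), and of 11 drug transport and regulator genes 1 rose and 2 fell.

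In HCC/CC tumours 38 members were tested, of which 3 rose and 5 fell against untreated liver cells, beside 17.4% of all genes higher and 6.23% lower (23.6% in all). With quantile normalization 2 rose and 7 fell. The median log2 difference was -0.15 over the members and 0.03 over all genes. Abcb1a had a lowest level of 5.02, a median of 7.90 and a highest of 9.51 in the 14 tumours, all above the untreated samples (3.41 to 4.40), a log2 difference of 3.69 ± 0.45 (SE; adjusted p = 8.1e-06). Slc22a27 spanned 2.90 to 9.55 (median 6.40) in tumours, against 2.85 to 3.53 in untreated cells, so that its rise of 3.29 ± 0.97 (adjusted p = 0.01) came with overlap. Abcg2 spanned 7.40 to 10.42 (median 9.75), against 7.03 to 9.23, and rose by 1.20 ± 0.39 (adjusted p = 0.017), a call that ended without untreated sample 2 (0.87, adjusted p = 0.074), with quantile normalization (0.88, adjusted p = 0.076) and without the endothelial-rich samples (0.67, adjusted p = 0.2).

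Slc22a7 spanned 2.93 to 9.41 (median 6.40) in HCC/CC tumours, against 6.95 to 11.48 in untreated cells, and fell by 2.71 on the log2 scale (SE 1.01, adjusted p = 0.037). That call ended without HCC/CC sample 3, 8 or 14 or untreated sample 3, 4 or 5 (adjusted p = 0.05 to 0.15). Slco2a1 spanned 7.39 to 9.93 (median 8.51), against 9.52 to 11, and fell by 1.70 (adjusted p = 0.0033), but by 0.46 with the mean of its probe sets. Abcc6 fell by 1.89, a call that ended without untreated sample 3 (-1.46), 4 or 5 (-1.64 each) and that was at -3.13 without the endothelial-rich samples, and Abcc10 by 1.36 (-0.94 without untreated sample 5). Slc22a6 was at background in all tumours (2.87 to 3.40) and below all untreated samples (3.50 to 5.65), a call that ended with median centring (-0.98). Untreated samples 2 to 5, at 3.50 to 3.96, were at background for Slc22a6 as well. Abcb11 (6.24 to 10.24, median 9.02) and Slco1b2 (4.83 to 11.79, median 9.81) were not called, at -1.18 (adjusted p = 0.14) and -0.93 (0.36). Nor were Abcb4 (-0.10, 0.91), Abcc2 (0.56, 0.48), Abcc3 (-0.31, 0.45), Abcc4 (1.37, 0.15), Abcg5 (-0.66, 0.49), Abcg8 (-1.0, 0.16), Slco1a4 (-0.72, 0.57) and Slco2b1 (-0.06, 0.94). Without the endothelial-rich samples 5 members rose and 11 fell, with Abcb11 (-2.35), Abcg8 (-1.92) and Abcc3 (-1.0) called lower and Abcc4 (2.90) higher.

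The tumours differed among themselves. HCC/CC samples 2 and 11, which had the bile duct marker levels 11.04 and 9.67, held Abcb11 at 6.24 and 6.44 and Slco3a1 at 8.99 and 9.82, values chosen after they were seen. Fibroblast marker levels were 6.33 to 9.09 in tumours against 4.80 to 5.88 in untreated cells, endothelial levels 5.32 to 7.48 against 7.20 to 11.25, and their part in the results was not tested. Of 12 bile acid and sterol partners 4 rose and 2 fell in HCC/CC (Cyp8b1 -4.15, Slc10a2 2.63), of 10 renal partners 3 rose and 1 fell, and of 11 drug transport and regulator genes 2 rose and 2 fell. DDC cells, neonatal cells and HCC/CC tumours were all set against the same 5 untreated samples. Their log2 differences for Abcb1a were 2.95, 2.15 and 3.69, those for Slc22a7 -4.11, -4.34 and -2.71, and those for Slc22a30 -3.10 and -6.21 in the first 2. Slc22a30 was not called in HCC/CC tumours.

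**Figure D3:**
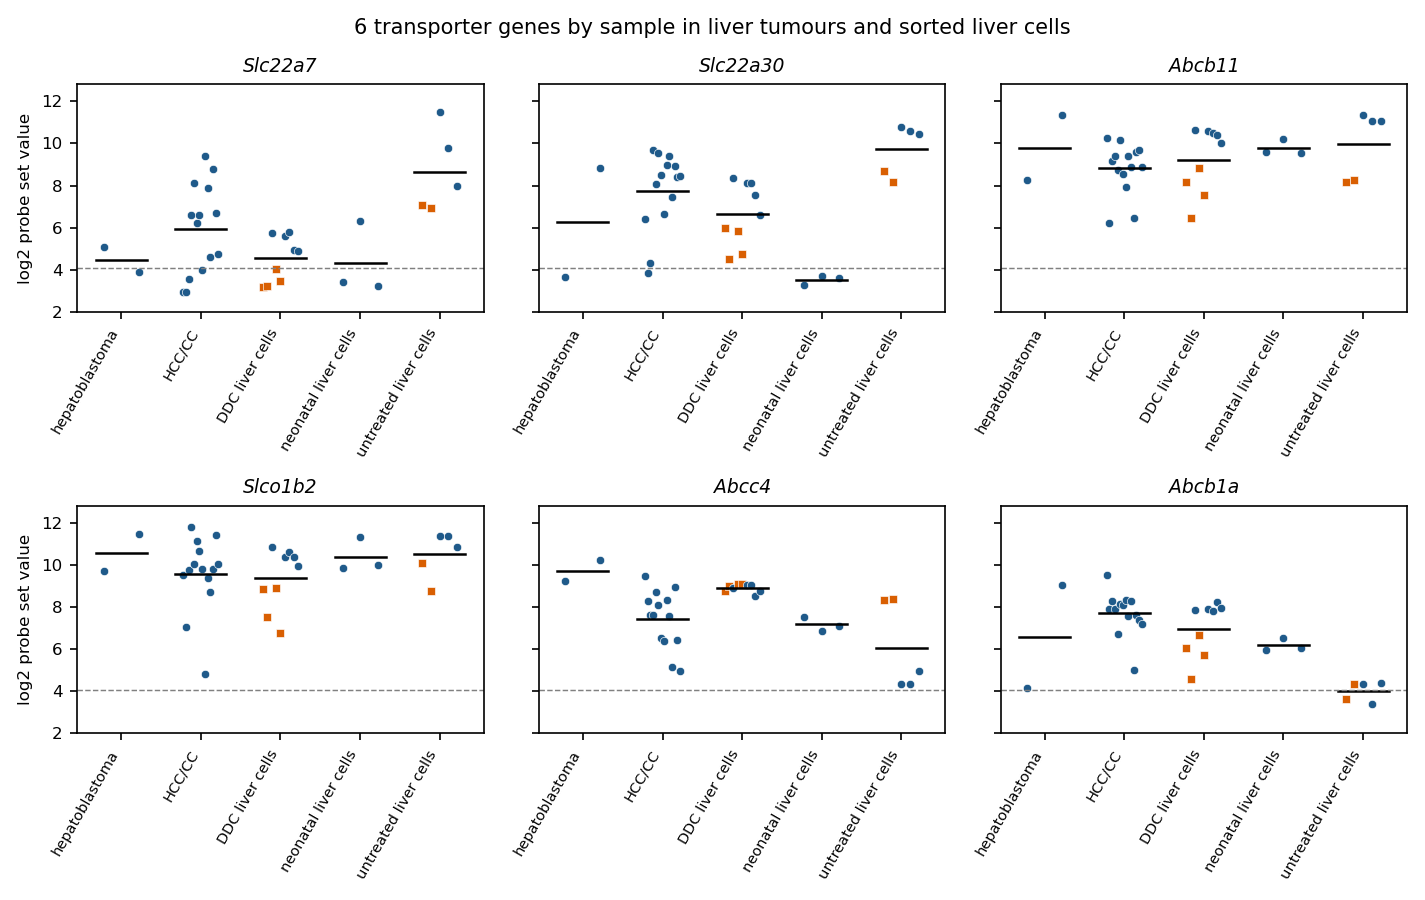
Log2 level (vertical axes) of Slc22a7, Slc22a30, Abcb11, Slco1b2, Abcc4 and Abcb1a in every liver sample, with hepatoblastoma, HCC/CC, DDC, neonatal and untreated groups on the horizontal axes; points are samples, bars means, and orange squares the 6 sorted samples rich in endothelial markers. Abcb1a has its lowest group mean in untreated cells, though hepatoblastoma sample 1, at 4.13, lies in their range. The Abcc4 levels of untreated cells form separate ranges, with the squares high.

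Hepatoblastomas were set against HCC/CC tumours, of the same organ and preparation. Of 34 members tested 2 rose and 3 fell, beside 3.27% and 2.82% of all genes (6.09% in all), with medians of 0.06 and 0.01. Abcg8 read 7.76 and 8.68 in hepatoblastomas, above all HCC/CC samples (3.88 to 7.28), a log2 difference of 2.26 ± 0.55 (SE; adjusted p = 0.0048). Abcc4 read 9.22 and 10.23, against 4.98 to 9.47 (2.28 ± 0.69, adjusted p = 0.028). Abcc3 read 8.44 and 7.05, below the HCC/CC range of 8.88 to 10.47 (-2.12 ± 0.43, adjusted p = 7.0e-04), and Slco2a1 6.18 and 6.62, below 7.39 to 9.93 (-2.24 ± 0.57, adjusted p = 0.0074). Abcg2 read 6.71 and 8.74, against 7.40 to 10.42 (-1.80 ± 0.55, adjusted p = 0.028). These rest on 2 tumours that were unlike: hepatoblastoma samples 1 and 2 read 4.13 and 9.04 for Abcb1a, 3.67 and 8.83 for Slc22a30 and 8.25 and 11.34 for Abcb11. Without sample 1 the calls of Abcg2 (-0.78, against -2.81 without sample 2), Slco2a1 (-2.02) and Abcc4 (2.78, adjusted p = 0.073) ended, and without sample 2 those of Abcc3 (-1.43), Abcg8 (1.80) and Abcc4 (1.77). With only these groups in the fit, 1 member, Abcc3, was called.

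No other member of the bile handling set was called in hepatoblastomas, with log2 differences of 0.98 for Abcb11 (adjusted p = 0.27), 1.19 for Abcb4 (0.21), 1.15 for Abcc2 (0.39), 1.10 for Abcg5 (0.59), -1.45 for Slc22a7 (0.3), 0.81 for Slco1a4 (0.61), 1.02 for Slco1b2 (0.41) and -0.81 for Slco2b1 (0.45). Of 12 bile acid and sterol partners 2 rose and 1 fell, of 11 renal partners 1 rose and 0 fell by limma, and of 11 drug transport and regulator genes 1 rose and 0 fell.

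In small intestinal adenomas 29 members were tested, of which 5 rose and 11 fell against sorted small intestinal cells, beside 13.6% of all genes higher and 8.43% lower (22% in all). All 16 called members had groups that did not overlap. The same held for 2433 of the 2439 genes called (22% of all genes tested). The median log2 difference was -0.35 over the members and -0.08 over all genes. The sterol exporter genes Abcg5 and Abcg8, Abcg2 and Slco2b1 were among those that fell, and Abcb1b, Abcc1, Abcc4, Abcg1 and Slco5a1 rose. Abcc4 read 8.42, 7.99 and 7.77 in adenomas, against 3.38, 3.25 and 2.90 in cells, a log2 difference of 4.88 ± 0.27 (SE; adjusted p = 2.5e-04). Abcg1 read 7.15, 5.50 and 6.26, against 3.77, 4.05 and 3.63 (2.49 ± 0.42, adjusted p = 0.0058). Abcc1 read 8.21, 7.99 and 8.24, against 5.99, 6.17 and 6.87 (1.81 ± 0.26, adjusted p = 0.0036). Slco5a1, an orphan carrier, read 4.20, 4.84 and 5.63, against 2.85 to 2.96 (1.98 ± 0.37, adjusted p = 0.0081). Abcb1b rose by 1.54 ± 0.46 (adjusted p = 0.04), a call that ended when either adenoma 1 (1.23) or 3 (1.31) or any 1 of the cell samples (1.46 to 1.64) was left out, and with the mean of its probe sets (0.91). With that mean Abcg1 was at 1.31.

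Abcg5 read 3.69, 7.57 and 3.44 in adenomas, against 10.29, 9.84 and 9.61 in cells, a log2 difference of -5.01 ± 1.02 (SE; adjusted p = 0.011), and Abcg8 read 3.50, 5.19 and 3.21, against 7.40, 7.33 and 7.52 (-3.45 ± 0.50, adjusted p = 0.0036). Abcg2 read 4.46, 6.78 and 4.52, against 9.85, 9.07 and 9.50 (-4.22 ± 0.62, adjusted p = 0.0036). Adenoma 2 was the highest in these genes, and its mean enterocyte marker level was 11.45, against 7.68 and 8.27 in adenomas 1 and 3 and 11.81 to 12.76 in cells. Slco2b1 was also highest in adenoma 2, by a smaller margin, at 4.67, 5.09 and 4.13 against 8.88, 8.88 and 8.98 (-4.28 ± 0.27, adjusted p = 3.0e-04, and -2.47 with the mean of its probe sets). Slc22a4 read 3.08, 4.57 and 3.20 and fell by 2.53, and Abcc6 fell by 2.09, Slco2a1 by 1.83 (by 0.94 with the mean of its probe sets) and Slco4a1 by 1.32. Abcc3 (-1.45), Slc22a5 (-1.14) and Abcb6 (-1.16) fell in calls that each ended without cell sample 3 (-1.43, -1.24 and -1.16) or 1 (-1.35, -0.94 and -1.04). Leaving out adenoma 3 ended those of Abcc3 and Slc22a5, adenoma 1 those of Slc22a5 and Abcb6, and cell sample 2 that of Slc22a5, which also ended with the mean of its probe sets (-0.46). Abcb1a, at 8.83, 9.22 and 7.96 in adenomas, and Abcc2, at 5.17, 8.53 and 3.38, were not called.

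Smooth muscle marker levels were 8.41 to 8.71 in adenomas against 3.49 to 3.91 in cells, and fibroblast levels 6.49 to 7.87 against 3.57 to 4.37. The part of these and of the enterocyte share was not tested. Partner genes fell with the members: 9 of 9 renal partners (Slc2a2 -5.87, Slc6a19 -4.81), 8 of 11 drug transport and regulator genes with 0 higher by limma (Pdzk1 -4.50, Slc47a1 -4.32, Ppara -3.38), and 5 of 8 bile acid and sterol partners with 1 higher (Npc1l1 -4.43, Slc51a -4.36, Slc51b -3.93).

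Large intestinal adenomas, set against small intestinal ones, had 6 members higher and 1 lower of 28 tested, beside 6.6% and 6.32% of all genes (12.9% in all), with medians of 0.1 and 0.02. Abcg2 read 8.82, 9.48, 9.79, 8.63 and 9.38 in large intestinal adenomas, above the 4.46, 6.78 and 4.52 of small intestinal ones, a log2 difference of 3.97 ± 0.53 (SE; adjusted p = 3.4e-07). Slco2a1 read 8.15, 7.87, 8.23, 6.56 and 8.88, against 5.58, 6.37 and 5.22 (2.21 ± 0.55, adjusted p = 0.0037). Slco2b1 read 7.43, 6.96, 6.43, 6.34 and 6.92, against 4.67, 5.09 and 4.13 (2.19 ± 0.60, adjusted p = 0.0083, and 1.94 with adjusted p = 0.068 without small intestinal adenoma 3). The Slco2b1 call also ended without cross-hybridising probe sets (1.28, adjusted p = 0.066), and with the mean of all probe sets Slco2b1 was at 1.30 and Slco2a1 at 1.47. Slco5a1 was at background, 2.71 to 3.14, against 4.20, 4.84 and 5.63 (-1.92 ± 0.38, adjusted p = 3.4e-04). No sample of these 4 genes overlapped. Slc22a4 (1.53), Abcb6 (1.25) and Slc22a23 (1.15) rose in calls that ended without small intestinal adenoma 1 (1.26, 0.99 and 1.08) or 3 (1.32, 1.39 and 1.24), those of Abcb6 and Slc22a23 also without small intestinal adenoma 2 or large intestinal adenoma 2, and without large intestinal adenoma 5 for Abcb6 and 3 for Slc22a23. Those of Slc22a4 and Abcb6 ended with only these groups in the fit (adjusted p = 0.11 and 0.078), and that of Abcb6 with no filter (adjusted p = 0.052). The count of 7 fell to 4 without small intestinal adenoma 1 and to 3 without small intestinal adenoma 3.

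The sterol exporter divided the large intestinal adenomas: Abcg5 read 8.27, 3.03, 8.99, 8.33 and 3.05 in samples 1 to 5, high in samples 1, 3 and 4 and at background in samples 2 and 5. Abcc2, at 7.85, 3.41, 6.74, 4.71 and 3.05, and Abcg8, at 4.96, 3.31, 5.20, 4.65 and 3.76, had the same samples high, and neither was called. Abcb1a was well above background in all 5, at 10.31, 10.72, 10.73, 8.94 and 11.35, and in all 3 small intestinal adenomas. Enterocyte marker levels were 9.01 to 11.49 in large intestinal adenomas. Of 8 bile acid and sterol partners 5 rose and 1 fell (Slc51b 3.65, Nr1h4 3.29), of 10 drug transport and regulator genes 2 rose and 0 fell by limma, and of 8 renal partners 0 rose and 0 fell.

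**Figure D4:**
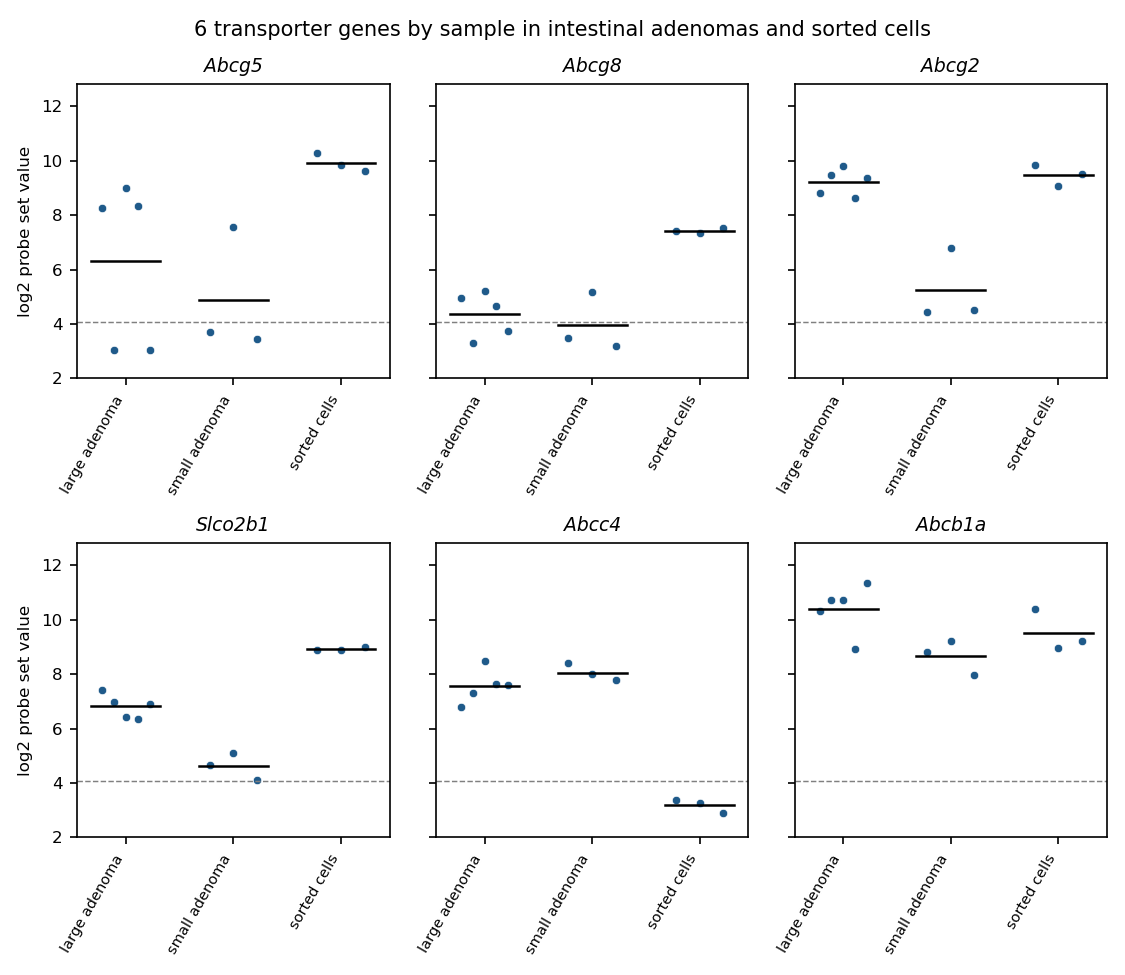
Log2 level (vertical axes) of Abcg5, Abcg8, Abcg2, Slco2b1, Abcc4 and Abcb1a in large intestinal adenomas, small intestinal adenomas and sorted small intestinal cells (horizontal axes, in that order); points are samples and bars means. Abcc4 is above 6 in all adenomas and below 4 in all cell samples, and Abcg5 lies high or at background among adenomas of either site.

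In prostatic adenocarcinomas 27 members were tested, of which 6 rose and 5 fell against sorted prostate cells, beside 12.4% of all genes higher and 8.69% lower (21.1% in all), with medians of -0.21 and -0.05. With quantile normalization 4 rose and 6 fell. Slc22a23 spanned 7.35 to 8.15 (median 7.78) in the 8 tumours, against 5.41, 5.81 and 6.33 in cells (log2 difference 1.89 ± 0.24, SE; adjusted p = 1.9e-04). Abcg1 spanned 6.95 to 8.91 (median 8.19), against 5.73, 6.09 and 6.78 (1.84 ± 0.46, adjusted p = 0.0085), and Abcc5 spanned 5.72 to 7.30 (median 6.72), against 5.12, 5.01 and 4.99 (1.60 ± 0.33, adjusted p = 0.0031). Tumours lay above cells in these 3 genes. Slco5a1 spanned 3.23 to 6.58 (median 5.80), against 3.40, 3.18 and 3.04, and rose by 2.42 ± 0.58 (adjusted p = 0.007) with overlap. Slco3a1 rose by 1.18, and by 0.79 without prostate cell sample 1 and 0.95 with quantile normalization. Averaging all probe sets ended the calls of Abcc5 (0.50, adjusted p = 0.053) and Slco3a1 (0.52).

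Slco4c1 and Abcg4, called higher in prostate cells than in other organs, fell in prostatic adenocarcinomas. Slco4c1 spanned 2.96 to 4.72 (median 3.57) in tumours, against 5.85, 5.75 and 6.79 in cells (log2 difference -2.46 ± 0.42, SE; adjusted p = 0.0012), and Abcg4 spanned 3.42 to 4.18 (median 3.78), against 5.84, 6.15 and 4.76 (-1.83 ± 0.28, adjusted p = 5.8e-04), both without overlap, the last at -1.17 with the mean of its probe sets. Slco2b1 fell by 2.41 (adjusted p = 0.0084) with overlap, as a tumour at 6.71 exceeded a cell sample at 6.6, and its difference was -1.49 without prostate cell sample 3 and -1.43 with the mean of its probe sets. Slc22a17 (-1.34) and Slco4a1 (-1.11) fell in calls that ended without prostate cell sample 1 (-1.16 and -0.49), that of Slc22a17 also without cell sample 2 or 3, and Abcb1a rose by 1.06 (adjusted p = 0.042), a call that ended without any 1 of the 3 cell samples (0.90 to 1.15) or tumour 1, 2, 3, 5 or 6, with quantile normalization (0.88), median centring (0.98) or no filter. Without prostate cell sample 1 the count of 11 fell to 7. Mean prostate marker levels were 2.80 to 11.54 in tumours against 13.20 to 13.38 in cells, macrophage levels 6.28 to 7.83 against 8.0 to 9.55, fibroblast levels 7.49 to 10.38 against 6.04 to 8.30 and smooth muscle levels 7.21 to 10.53 against 5.04 to 5.76, and their part in these results was not tested. Of 3 bile acid and sterol partners tested 1 rose and 1 fell, of 8 drug transport and regulator genes 1 rose and 1 fell, and of 2 renal partners 0 rose by limma and 1 fell.

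In gastric adenomas 26 members were tested, of which 3 rose and 1 fell against the 2 stomach cell samples, beside 8.07% of all genes higher and 3.07% lower (11.1% in all), with medians of -0.09 and -0.05. With quantile normalization 2 rose and 2 fell. Abcc4 spanned 7.63 to 9.17 (median 8.66) in the 7 adenomas, against 7.54 and 6.52 in cells (log2 difference 1.46 ± 0.38, SE; adjusted p = 0.03). Abcc3 spanned 9.87 to 11.12 (median 10.71), against 8.88 and 9.66 (1.36 ± 0.35, adjusted p = 0.027), and Abcb1a spanned 4.97 to 6.67 (median 5.83), against 4.21 and 4.23 (1.61 ± 0.49, adjusted p = 0.05, just under the threshold before rounding). Slc22a17 spanned 4.37 to 5.53 (median 4.92), against 6.26 and 7.18 (-1.85 ± 0.34, adjusted p = 0.0073). The groups did not overlap in any of the 4, as in 1189 of the 1220 genes called (10.8% of all genes tested). Each call could be ended by leaving out 1 sample. That of Abcc3 ended without stomach cell sample 1 (0.97), and those of Abcc4 and Slc22a17 without stomach cell sample 2 (0.94 and -1.39). The Abcc4 call also ended without adenoma 3, 5 or 7 (adjusted p = 0.05 to 0.054). That of Abcb1a ended without either stomach cell sample (1.60 and 1.62) or without adenoma 1, 2, 3, 4, 6 or 7. The Abcb1a call also ended with quantile normalization (1.45), no filter (1.61) or the mean of its probe sets (1.72), at adjusted p = 0.055 to 0.068. The count of 4 fell to 2 without adenoma 3 or 7 and to 1 without stomach cell sample 2. Smooth muscle marker levels were 6.51 to 8.67 in adenomas against 3.43 to 4.28 in cells, and their part was not tested. Of 5 bile acid and sterol partners 0 rose by limma and 1 fell, and of 8 drug transport and regulator genes and 6 renal partners 0 were called.

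In uterine carcinomas 24 members were tested, of which 3 rose and 6 fell against sorted uterus cells. Of all genes tested 8.57% were called higher and 10.1% lower (18.7% in all). Median log2 differences were 0.01 over the members and 0.04 over all genes. The called members all lacked overlap, as did 1969 of the 2040 genes called (18.1% of all genes tested). Slco2b1 read 4.25, 5.12 and 4.72 in carcinomas, against 9.67, 9.99, 10.16 and 9.26 in cells, a log2 difference of -5.08 ± 0.28 (SE; adjusted p = 4.7e-05). Abcb1b read 4.39, 3.29 and 4.04, against 7.01, 11.21, 9.67 and 5.80 (-4.52 ± 1.18, adjusted p = 0.024), a call that ended without carcinoma 2 or 3 or uterus cell sample 3 (-4.21, -4.58 and -4.10). Abcg1 read 7.22, 8.43 and 8.09, against 9.21, 9.27, 9.55 and 9.20 (-1.39 ± 0.28, adjusted p = 0.0088). Slco3a1 read 8.40, 7.88 and 7.47, against 5.96 to 6.32 (1.78 ± 0.24, adjusted p = 0.0019), and Abcc4 9.54, 9.56 and 9.36, against 8.11, 8.84, 8.39 and 8.26 (1.08 ± 0.19, adjusted p = 0.0058, and 0.99 without uterus cell sample 1). With the mean of all probe sets Slco2b1 was at -2.97, Abcb1b at -2.62 and Slco3a1 at 1.16.

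Calls in uterine carcinomas that ended without carcinoma 3 were those of Slco1a5 (3.19, and 3.65 without it), Abcb1a (-1.49, and -1.31), Abcg2 (-1.12, and -0.86) and Abcg3 (-1.43, and -1.35), of which Slco1a5 read 9.01, 4.13 and 5.19 in carcinomas against 2.80 to 3.05 in cells. The Slco1a5 difference was 1.75 without carcinoma 1, the high one, and its call also ended with the mean of its probe sets (1.68, adjusted p = 0.09), with quantile normalization (3.06, adjusted p = 0.053), with no filter (adjusted p = 0.056) and without any 1 of the cell samples, that of Abcb1a without carcinoma 2 or cell sample 2, that of Abcg2 without carcinoma 2 or cell sample 2, 3 or 4 or with no filter, and that of Abcg3 without carcinoma 2 or cell sample 1 or 2. The count of 9 fell to 5 without carcinoma 2, carcinoma 3 or uterus cell sample 2. Macrophage marker levels were 7.22 to 8.32 in carcinomas against 9.69 to 10.20 in cells, and their part was not tested. Of 3 bile acid and sterol partners 0 rose by limma and 2 fell, of 5 drug transport and regulator genes 1 rose and 0 fell, and of 4 renal partners 1 rose and 1 fell.

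Across the 5 comparisons of a tumour with sorted cells of its organ (HCC/CC, small intestinal adenoma, prostatic adenocarcinoma, gastric adenoma and uterine carcinoma), 29 of the 44 members tested in at least 1 were called in at least 1, beside 52.9% of all genes, and 13 of the 35 tested in at least 2 were called in at least 2, beside 23.1%. Abcc4 was higher in 3 and lower in 0, with log2 differences of 4.88, 1.46 and 1.08 in small intestine, stomach and uterus. Slco2b1 was lower in 3 and higher in 0, at -4.28, -2.41 and -5.08 in small intestine, prostate (with overlap, and -1.49 without prostate cell sample 3) and uterus. Abcb1a was higher in 3 (3.69, 1.06 and 1.61 in liver, prostate and stomach) and lower in uterus (-1.49). Slco3a1 and Slco5a1 were each higher in 2, and Abcc6, Slco2a1, Slc22a17 and Slco4a1 each lower in 2. Abcg1, Abcg2, Abcb1b and Abcc3 were called in opposite directions in different organs. All 5 set whole tissue against selected cells.

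**Figure D5:**
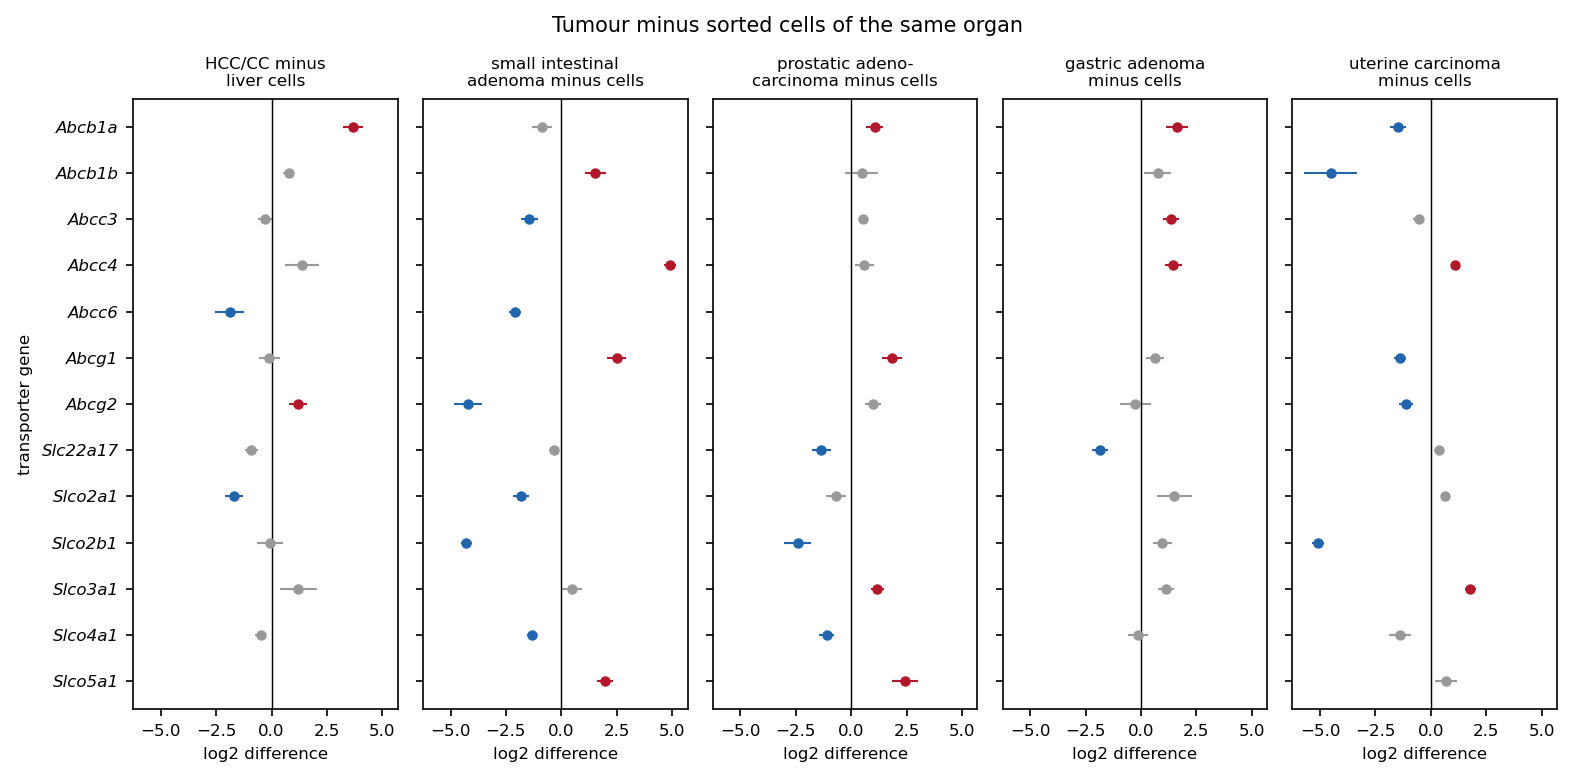
Log2 difference of tumour minus sorted cells (horizontal axis, bars SE) for the 13 members called in at least 2 of the 5 tumour comparisons (rows), with a panel for each comparison; red points were called higher, blue called lower, grey not called, and a missing point was not tested. Abcc4 has no blue point and Slco2b1 no red one.

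The remaining members are given by their levels in sorted cells. Abcb10 was above the filter value in all sorted groups, with group means from 6.01 ± 0.47 in uterus cells to 7.87 ± 0.12 in kidney cells (SD, n = 4 each). Abcc8, the sulfonylurea receptor of potassium channels, exceeded the filter value only in untreated liver cells among the sorted groups, at 3.70 to 4.93. Slc22a13, a urate and nicotinate carrier in human, exceeded it only in lung cells, because of 1 sample at 6.18 beside 3.41 to 3.70. Slc22a15 read 4.38 to 5.30 in untreated liver cells and 3.08 to 3.47 in kidney cells. Slco6c1, Slco6d1 and Slc22a14, known from testis, Slco1c1, the thyroxine carrier of brain vessels, Slc22a19 and Abcc12 had no sorted sample above 5.36.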

How the data were processed

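The deposited table holds log2 values for 45141 probe sets on 103 arrays, between 1.85 and 14.36. Per the submitters' processing notes the authors used Partek 6.6; how background was corrected and the arrays normalized and summarized, and the annotation build, were not given in the sources used here. Medians of the arrays were 3.82 to 4.24. The closest pair of arrays correlated at 0.994 with differences up to 1.75, so no array was counted once for a pair. Precision is limited by the number of arrays.

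The platform annotation gave 1 gene to 28898 probe sets, several genes to 551 and none to 15588; 28689 matched RefSeq symbols. For each of 17097 genes the probe set with the highest mean was kept. A filter kept genes whose mean, in 1 or more of the groups compared, was above the 40th percentile of all gene values in the fit (4.06 for the sorted cells). limma 3.58.1 in R 4.3.3 (lmFit and eBayes with an intensity trend) was fitted over all genes, with Benjamini-Hochberg adjustment over all of them, and a call required a log2 difference of 1 or more in size with its adjusted p below 0.05. The 10 sorted groups were fitted together, tumours compared with tumours in a fit of the 11 primary tumour groups with 2 or more samples, and each tumour compared with cells in a fit of those 2 groups. The fit recovered changes in simulated data, where log2 differences larger than 1 were planted in genes above the median level. Each simulated gene had the same spread in every group. The simulation therefore says nothing of calls near the size threshold, near background or between groups of unequal spread. Tables and figures used Python 3.11.15, pandas 2.3.3 and matplotlib 3.10.9.

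The members, role groups, partner lists and markers were chosen with earlier results of these data known. Members were described with values when called without overlap, by size of difference, up to 12 a direction in kidney, liver, small intestine, DDC, neonatal and HCC/CC comparisons and 6 in the others, together with fixed bile and renal sets and the pairs Abcb1a and Abcb1b, Abcg5 and Abcg8, and Slc22a4 and Slc22a5; other members named were chosen after their values were seen. Up to 4 genes of a partner list were named by size. Promoters are RefSeq sequences on GRCm38.p6, found for 44 of the 55 members, from 250 bases before to 50 after the start.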

Additional observations from a re-analysis of the deposited data

Results flagged for a closer look

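Each named member was checked for a sample standing apart in groups of 4 to 10 samples, and 1 of 78 checks met the limit of Dixon's test, where chance would flag about 1 in 20 groups. Slc22a6 read 5.65 in untreated liver sample 1, against 3.50 to 3.96 in untreated samples 2 to 5. The mean proximal tubule marker level of that sample was 4.59, against 3.47 to 3.93 in the other untreated samples, and the part of this in the level was not tested.

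Members called in opposite directions in tumours of different organs were compared by the difference of their log2 differences, tested with limma in a single fit of the 5 tumour types and their sorted cells. Abcg2 rose in HCC/CC and fell in small intestinal adenomas and uterine carcinomas: the first log2 difference exceeded the others by 5.42 ± 0.73 (SE; adjusted p = 3.7e-07) and 2.32 ± 0.69 (adjusted p = 0.0098). Abcb1a, lower in uterine carcinomas than in uterus cells, differed between that tumour and HCC/CC by 5.18 ± 0.69 (HCC/CC minus uterine; adjusted p = 2.4e-07), prostatic adenocarcinomas by 2.55 ± 0.76 (prostatic minus uterine; adjusted p = 0.018) and gastric adenomas by 3.10 ± 0.82 (gastric minus uterine; adjusted p = 0.0079). Abcg1 rose in small intestinal adenomas and prostatic adenocarcinomas and fell in uterine carcinomas, with differences of 3.88 ± 0.84 (adjusted p = 8.9e-04) and 3.24 ± 0.77 (adjusted p = 0.0028) against the last. Abcb1b differed between small intestinal adenomas and uterine carcinomas by 6.06 ± 1.09 (adjusted p = 8.4e-05). Abcc3 fell in small intestinal adenomas and rose in gastric adenomas, a difference of -2.81 ± 0.59 (small intestinal minus gastric; adjusted p = 0.0012). These pairs were chosen for their opposite calls, so the tests are no independent evidence of a difference. The calls behind them that end with 1 sample left out are named in the comparisons above.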

How the results depend on the processing

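No paired analysis was possible because replicate numbers were given in accession order and pair no samples. Of 139 counts of called members under another setting, 131 stayed within 1.5 times the count reported, as did 361 of 374 with 1 sample left out. The others were, for DDC, 7 with the mean of all probe sets and 6 with only the groups compared in the fit (11 reported); for neonatal liver, 9 with a 60th percentile filter and 26 without the endothelial-rich samples (14 reported), the last setting also giving 16 in HCC/CC (8 reported); with the 60th percentile filter, 10 in small intestinal adenomas (16 reported) and 6 in prostatic adenocarcinomas (11 reported); and 1 in hepatoblastomas with only the groups compared (5 reported). The smaller counts under the stricter filter come with fewer members tested; the cause of the others was not tested. The setting without endothelial-rich samples was chosen after seeing the data.

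With each sample left out in turn the counts ranged from 25 to 30 in kidney, 18 to 26 in liver, 16 to 20 in lung, 12 to 19 in prostate, 15 to 25 in salivary gland, 20 to 25 in small intestine, 7 to 13 in stomach and 23 to 28 in uterus cells, 6 to 16 after DDC, 11 to 20 in neonatal liver, 6 to 11 in HCC/CC, 12 to 18 in small intestinal adenomas, 7 to 13 in prostatic adenocarcinomas, 1 to 4 in gastric adenomas, 5 to 10 in uterine carcinomas, 5 to 7 in hepatoblastomas and 3 to 9 in large intestinal adenomas. The count of opposite calls between tumours was 9, and 8 to 9. Stomach cells and hepatoblastomas are then 1 sample, assumed to vary like the other groups.

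Of 2319 values of named members under another setting 96 lost their call, 15 gained one and 7 changed sign, none of them called in the fit reported: for DDC Slco2b1, -0.24 without cross-hybridising probe sets and -0.31 without endothelial-rich samples; for neonatal liver Abcc2, -0.24 with quantile normalization and -1.25 without endothelial-rich samples, and Slco1b2, 0.49 with the mean of all probe sets; for HCC/CC Abcc2, -0.69 without endothelial-rich samples, and Slco2b1, 0.01 with median centring. Of 6247 values with 1 sample left out 262 lost their call and 34 changed sign. Their ranges were, for DDC, -0.56 to 0.26 for Abcb4, -0.09 to 1.31 for Slco1a4 and -0.18 to 0.73 for Slco2b1; for HCC/CC, -0.61 to 0.20 for Abcb4, -0.21 to 0.91 for Abcc2 and -0.57 to 0.35 for Slco2b1; for neonatal liver, -0.66 to 0.13 for Abcb11, -0.76 to 0.35 for Abcc2 and -0.58 to 0.16 for Slco1b2; for hepatoblastomas, -0.56 to 2.53 for Abcb11, -1.21 to 2.83 for Slco1a4 and -2.50 to 0.89 for Slco2b1.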

Other observations

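The values below, mostly of tumours without a comparison of their own, were chosen after they were seen, and no test was made. Gastric adenocarcinomas held Abcb1a at 7.54, 9.18, 9.60 and 9.88 and Abcb1b at 7.12, 9.49, 8.02 and 8.36, and their metastases were as high, with Abcb1a at 10.13 in the abdomen and 9.18 in the liver and Abcb1b at 8.36 and 9.69. Stomach cells held Abcb1a at 4.21 and 4.23 and Abcb1b at 4.66 and 4.14. Large intestinal adenomas also held Abcb1a, at 8.94 to 11.35. The lung adenocarcinomas held Slco4c1 at 7.56 and 9.42, against 2.82 to 3.20 in lung cells. Squamous cell carcinomas held Slc22a4 at 6.58, 6.96, 7.21 and 7.24 in the perineal tumours, 6.39, 6.19 and 6.74 in the perioral ones and 7.0 in the periorbital one, beside 3.70, 6.24 and 5.46 in uterine carcinomas and 3.41 to 6.06 in large intestinal adenomas. Abcg4 read 5.60, 3.45, 5.33 and 3.59 in the perineal, 6.07, 4.93 and 5.09 in the perioral and 4.91 in the periorbital tumours.

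Metastases were 1 sample each, so their levels are single values. HCC/CC metastases to intestine and lung held Slco3a1 at 9.59 and 9.89 and Abcb11 at 5.71 and 3.34, both below the primary tumours for Abcb11 (6.24 to 10.24). The lung metastasis of hepatoblastoma held some hepatocyte transporters well above background, with Abcb11 at 9.38, Slco1b2 at 10.61 and Slc22a7 at 8.08. Slco2b1 and Slc22a30 were lower in it, at 4.84 and 4.83. Uterine carcinoma metastases held Slco1a5 at 9.38 in the abdomen and 6.86 in the liver. The liver metastasis of uterine carcinoma had a mean hepatocyte marker level of 11.35 and read 6.76 for Abcb11 and 7.95 for Slco1b2, while the lung metastases of HCC/CC and hepatoblastoma had lung marker levels of 12.83 and 10.24; the part of the host tissue in these values was not tested.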
